A study of Mus musculus with 8 samples.

Results

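Of 23282 gene rows measured in mouse liver and uterus, 37 hold genes of cholesterol and fatty acid synthesis that the sterol regulatory element-binding proteins (SREBPs) are known to switch on, or genes of the SREBPs and their regulators. They were chosen by symbol and all 37 symbols were found. Of them, 19 belong to the sterol arm (cholesterol synthesis, with the sterol carrier gene Stard4), 5 are regulators of the SREBPs themselves, and 13 belong to the fatty acid arm. The animals were female CD-1 mice, an outbred stock, ovariectomized at 6 weeks of age, which removes the main source of estrogen, and left for 1 week before dosing. A control group (ovariectomized, given neither agent), a group given bisphenol A (BPA, a building block of polycarbonate plastics with weak estrogenic action) at 200 mg/kg/day, a group given Korean red ginseng (KRG, steamed and dried ginseng root) at 1.2 g/kg/day and a group given both agents at these doses were dosed by mouth for 7 days. Each tissue has 1 library per group, 8 libraries in all, and all mice, controls included, lacked ovaries. How many mice stand behind each library, and whether a liver and a uterus share mice, is not stated in the labels.

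SREBPs are made as precursors in the membrane of the endoplasmic reticulum. When sterols are scarce, the escort protein SCAP carries them to the Golgi, where proteases release the part that enters the nucleus and binds sterol regulatory elements, often beside sites for NF-Y, which reads CCAAT boxes, and Sp1, which reads GC boxes. When sterols are plentiful, INSIG proteins hold SCAP and the precursor back. SREBP-2, from Srebf2, is known mainly for the genes of cholesterol synthesis, and SREBP-1c, from Srebf1, mainly for those of fatty acid synthesis, which in liver also answer to insulin and to the liver X receptor.

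The libraries held between 12372073 and 15290950 counts, of which Rn45s, the ribosomal RNA precursor, took 8.30% to 12.4%. Levels are in CPM, the count of a gene scaled by the total count of its library. The lowest count of any member was 45 in liver and 18 in uterus, and no member had a count of 0. The liver libraries carried the hepatocyte markers (5 of 5, summed at 25873 to 30823 CPM), and the uterus libraries those of smooth muscle (5 of 5) and stroma (5 of 5). Some libraries also carried RNA typical of other tissues. The liver given BPA held the acinar pancreas markers, 7 of 7, at a sum of 873 CPM against 0.392 to 5.35 CPM in the other livers. Skeletal muscle markers, 6 of 6, were summed at 147 CPM in the control liver and 413 CPM in the liver given KRG, against 2.47 and 1.54 CPM in the livers given BPA and both. In uterus, the bladder lining markers, 5 of 5, were summed at 190.3 and 55.8 CPM in the control and KRG libraries and at 3551 and 6737 CPM in those given BPA and both. Adipocyte markers, 8 of 8, were summed at 3770 CPM in the control uterus, 3186 with BPA, 7172 with KRG and 2539 with both. Their part in the members' values was not tested, except where a value is given below.

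With 1 library per group, a pair of libraries has no replicate error and no test. Each member is therefore given by its level in the control, BPA, KRG and BPA plus KRG libraries, in that order throughout, followed by a ratio. The parentheses after a fold hold its 95% exact interval by the Clopper-Pearson method, from the counts of both libraries. Such intervals cover counting error only, and since the labels mention no molecular identifiers they may be too narrow even for that. Log2 ratios are of CPM + 1, which understates the change of low genes. In bulk tissue, fewer cells of a type and less RNA per cell cannot be told apart.

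In liver, the genes of cholesterol synthesis stood lower in the library given KRG than in the control library at every step measured. All 19 members of the sterol arm had a ratio below 0, with a median log2 ratio of -0.77, against -0.05 over the 6709 genes that averaged 10 CPM or more in liver. Of these 19, 5 were at least 2-fold lower and 0 at least 2-fold higher, where 1.3% and 1.04% of all genes were. These 5 were Mvd, Idi1, Sqle, Cyp51 and Msmo1. The library given KRG alone was the lowest of the 4 livers for 18 of the 19, with Ebp the exception, and it was the lowest for 28.0% of all genes. The summed level of the arm was 4816, 4685, 3111 and 3466 CPM in the 4 livers.

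The first committed steps build mevalonate and turn it into the activated isoprene unit. Hmgcs1, the cytosolic HMG-CoA synthase that makes the precursor of mevalonate, was counted at 1109, 1256, 647 and 661 CPM. Both livers given KRG lay far below both livers without it, and the KRG library was 1.71-fold lower (1.67 to 1.76) than control. Mvk, which phosphorylates mevalonate, stood at 31.3, 25.8, 16.9 and 24.5 CPM, and Pmvk, which adds the second phosphate, at 127, 119.6, 94.2 and 114 CPM. In both genes the KRG library was lowest, by a smaller margin than in the next enzymes. Mvd, the decarboxylase that closes this stretch, was at 117, 126, 32.0 and 102 CPM. The KRG library alone was low here, 3.66-fold lower (3.30 to 4.06) than control, while the library given both was 3.17-fold higher (2.85 to 3.54) than the one given KRG. Idi1, the isomerase that makes the isoprene unit reactive, was at 30.7, 16.7, 6.85 and 12.8 CPM, and the KRG library was 4.48-fold lower (3.60 to 5.61) than control. The Idi1 control library was also above the 3 others, with BPA 1.83-fold lower (1.56 to 2.16). The last 300 bases of Idi1 transcripts share 44.3% of their 50-base stretches with the gene model Gm13502, so its level is uncertain where reads could be split.

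The middle steps join isoprene units into squalene and close the ring. Fdps, which makes farnesyl diphosphate, was at 181, 179, 124 and 129 CPM, with both livers given KRG below both without. Its transcript end shares up to 69.2% of such stretches with another gene model, Gm43738, and it is reported as uncertain. Fdft1, squalene synthase, was at 188, 172, 100.1 and 161 CPM, and an exon of Ctsb on the opposite strand overlaps its end, which matters if strand was not used in counting. Sqle, the squalene epoxidase that is a rate-controlling step after mevalonate, was at 84.4, 73.9, 19.1 and 57.3 CPM. Its KRG library was 4.41-fold lower (3.87 to 5.04) than control and the library given both was 3.0-fold higher (2.61 to 3.45) than KRG alone, the same shape as Mvd. Lss, which closes the ring to lanosterol, stood at 19.2, 17.0, 12.3 and 20.4 CPM, and the libraries with and without KRG overlapped.

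The late steps trim lanosterol to cholesterol. Cyp51, the lanosterol demethylase, was at 466, 388, 172 and 230.2 CPM, the KRG library being 2.71-fold lower (2.59 to 2.84) than control (Akap9 overlaps its end on the opposite strand). Msmo1, the sterol methyl oxidase (chr8:64718139-64733792, minus strand, mm10), was at 323, 406, 146 and 258 CPM, and its KRG library was 2.22-fold lower (2.11 to 2.33) than control. In both genes the library given both lay between KRG alone and the livers without KRG. Sc5d, a sterol desaturase, was at 257, 203, 132 and 187 CPM, Hsd17b7, a sterol ketoreductase, at 55.9, 65.7, 32.3 and 49.1 CPM, and Nsdhl, which removes a carboxyl group, at 37.4, 39.1, 23.4 and 25.9 CPM. All of these kept the livers given KRG below those without it. Tm7sf2, a sterol reductase, was at 60.6, 38.5, 35.3 and 37.7 CPM and Dhcr7, the reductase of the final step, at 27.4, 35.6, 19.3 and 21.6 CPM. In Tm7sf2 the BPA library was nearly as low as those with KRG, and in Dhcr7 the BPA library was the highest. Ebp, the sterol isomerase, differed little between libraries at 1420.5, 1199.8, 1284 and 1121 CPM. Acat2, the cytosolic thiolase that feeds the pathway, was at 245, 287, 190.2 and 214 CPM, and Stard4, which carries cholesterol between membranes, at 35.2, 36.1, 24.7 and 39.0 CPM.

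The second pair of livers, both agents against BPA alone, shares no library with the first. There 17 of the 19 sterol members had a ratio below 0, with a median of -0.36 where all genes had 0.12, although 0 reached 2-fold lower (1.33% of all genes did) and 0 reached 2-fold higher (2.36%). Taking both pairs, both livers given KRG were lower than both without it for 16 of the 19 (Lss, Ebp and Stard4 were the others), and for 10.6% of all genes. Leaving out any 1 liver left between 16 and 18 members ordered this way, the counts with fewer libraries being easier to reach. None of the 19 had both livers given KRG above both without, an order that 17.1% of all genes showed. Between the livers given both and KRG alone, which share the KRG library with the first pair, 18 of the 19 had a ratio above 0, with a median of 0.50 against 0.07, and 2, Mvd and Sqle, were at least 2-fold higher (1.57% of all genes). Markers of immune cells moved along with KRG in liver. The 5 neutrophil markers found were summed at 8.37, 9.40, 19.5 and 102 CPM and the 6 macrophage markers at 368, 279, 426 and 544 CPM, with 4 of 5 and 6 of 6 higher in both livers given KRG, while the hepatocyte sum was 27750, 25873, 27866 and 30823 CPM. Of the 5 epithelial markers, summed at 423, 441, 288 and 316 CPM, 3 were lower in both livers given KRG, as were 2 of the 5 stromal markers. The part of these cell types in the sterol result was not tested. With acinar, muscle and erythroid markers and Rn45s left out of the totals, the sterol median for KRG against control was -0.72.

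**Figure D1:**
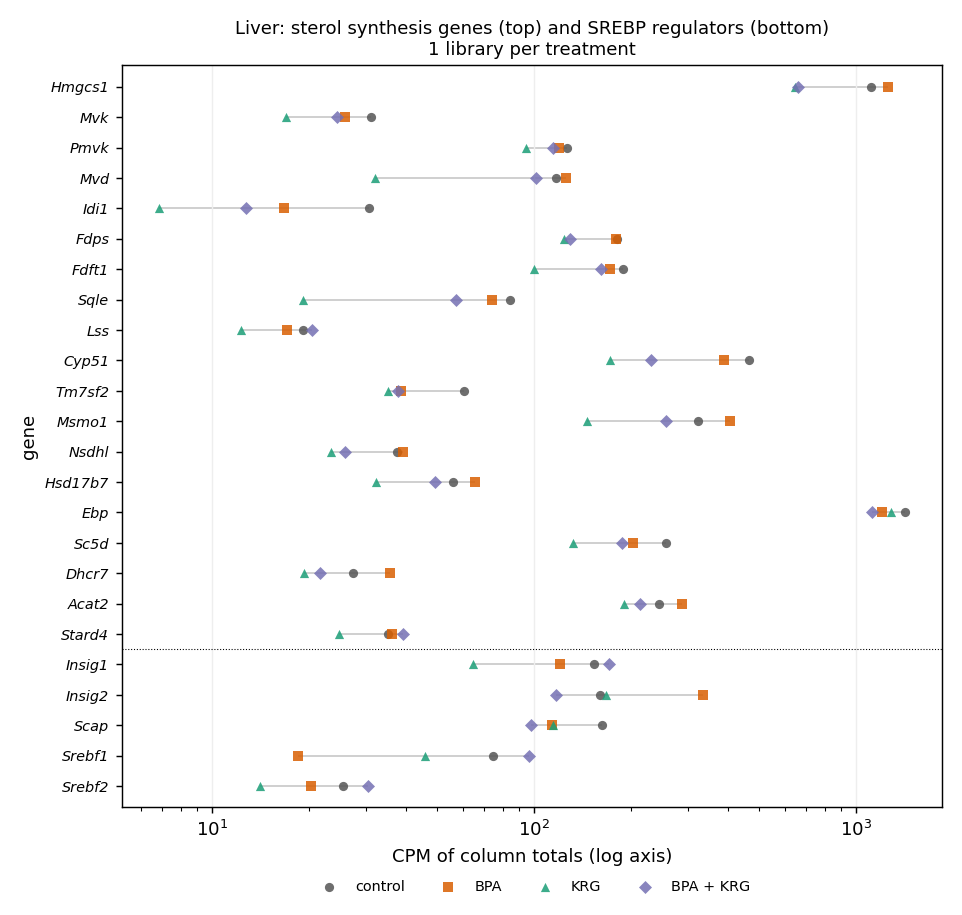
Levels of the 19 genes of the sterol arm and the 5 regulators in the 4 liver libraries, 1 point per library, on a log axis of CPM. The library given KRG alone is the leftmost point for 18 of the 19 sterol genes and stands furthest from control for Idi1, Sqle and Mvd.

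As a description, the promoters of the members were searched for the letters that SREBP, NF-Y and Sp1 are known to bind. The members were chosen as known genes of the SREBP system. The matches therefore describe the list and have no bearing on the values with KRG. RefSeq promoters on GRCm38.p6, 250 bases before to 50 after the start, were found for 30 of the 37 members, among them 15 of the 19 sterol genes with 18 promoters. The CCAAT box, searched as CCAAT on both strands, occurred in 14 of the 18 sterol promoters, in 14 of the 15 genes, against 37.4% of all 32851 promoters in the table and 37.6% of the 6656 promoters of genes measured in liver. The GC box, GGGCGG, occurred in 15 of the 18, against 35.7% of all promoters and 62.8% of those of genes measured in liver. A core of the sterol regulatory element, TCACNCCA, occurred in 2 of the 18, those of Hmgcs1 and Msmo1, and among regulators in Srebf2. It occurred in 4.36% of all promoters and 3.79% of those of genes measured in liver. The E-box CACGTG occurred in 3 of the 18, against 7.15% of all promoters and 10.5% of those of genes measured in liver. In the fatty acid arm, 7 of 11 promoters held a CCAAT box, 5 a GC box, and 0 the sterol element core or the E-box. No match of a motif overlapped a match of another (0 pairs), and a match is a description of letters, not a site.

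The 250 bases before the start are printed 5′ to 3′ for 6 members, with the sterol regulatory element core and CCAAT boxes, on either strand, in capitals (a CCAAT box on the other strand reads ATTGG). Hmgcs1, chr13:119690101-119690350 (plus strand), Msmo1, chr8:64733579-64733828 (minus strand), and Srebf2, chr15:82147019-82147268 (plus strand), are the 3 members that hold the core. Idi1, chr13:8885356-8885605 (plus strand), had with Sqle, which has no entry in the table, the largest log2 ratios of the sterol arm for KRG against control liver, Insig1, chr5:28071162-28071411 (plus strand), is the feedback regulator, and Pnpla3, chr15:84167566-84167815 (plus strand), had the largest ratio of the fatty acid arm in that pair.
Hmgcs1: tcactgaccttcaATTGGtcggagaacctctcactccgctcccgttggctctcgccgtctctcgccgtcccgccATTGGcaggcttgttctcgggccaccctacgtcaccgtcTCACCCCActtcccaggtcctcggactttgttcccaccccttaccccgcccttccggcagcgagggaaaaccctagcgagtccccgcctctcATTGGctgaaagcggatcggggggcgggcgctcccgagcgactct
Msmo1: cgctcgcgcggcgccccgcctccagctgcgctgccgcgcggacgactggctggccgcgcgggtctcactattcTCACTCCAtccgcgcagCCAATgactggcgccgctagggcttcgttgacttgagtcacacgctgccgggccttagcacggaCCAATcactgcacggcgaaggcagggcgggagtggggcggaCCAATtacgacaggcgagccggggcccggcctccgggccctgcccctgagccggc
Srebf2: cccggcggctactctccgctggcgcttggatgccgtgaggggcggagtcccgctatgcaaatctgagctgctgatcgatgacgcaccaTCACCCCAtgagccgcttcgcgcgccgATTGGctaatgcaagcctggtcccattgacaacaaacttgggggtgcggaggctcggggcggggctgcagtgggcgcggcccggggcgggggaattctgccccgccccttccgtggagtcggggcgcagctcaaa
Idi1: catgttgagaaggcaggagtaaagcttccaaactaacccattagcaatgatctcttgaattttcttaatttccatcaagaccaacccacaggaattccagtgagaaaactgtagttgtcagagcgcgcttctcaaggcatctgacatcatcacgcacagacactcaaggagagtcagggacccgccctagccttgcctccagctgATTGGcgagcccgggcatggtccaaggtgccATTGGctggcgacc
Insig1: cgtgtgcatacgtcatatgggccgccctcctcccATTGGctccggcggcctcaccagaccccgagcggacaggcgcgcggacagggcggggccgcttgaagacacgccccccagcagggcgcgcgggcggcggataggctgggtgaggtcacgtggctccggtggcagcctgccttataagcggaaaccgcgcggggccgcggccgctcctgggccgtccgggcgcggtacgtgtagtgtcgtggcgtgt
Pnpla3: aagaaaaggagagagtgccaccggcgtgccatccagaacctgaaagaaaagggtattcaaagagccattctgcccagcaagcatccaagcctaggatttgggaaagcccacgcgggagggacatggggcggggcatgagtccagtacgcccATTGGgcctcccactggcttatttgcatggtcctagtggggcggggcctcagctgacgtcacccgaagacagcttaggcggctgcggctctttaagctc
Within these bases the core of Hmgcs1 lies between CCAAT boxes, 3 in number, that of Msmo1 comes before 3 and that of Srebf2 before 1, and Idi1 holds 2 CCAAT boxes without the core.

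The regulators differed among themselves in liver. Insig1, itself a known SREBP target whose product holds the precursors back, was at 153, 120.0, 64.7 and 171 CPM. It was lowest with KRG alone, 2.37-fold lower (2.20 to 2.56) than control, and highest with both, 2.65-fold higher (2.45 to 2.86) than with KRG. Srebf2 followed the same order at 25.6, 20.4, 14.1 and 30.4 CPM. Srebf1 was at 74.4, 18.5, 46.0 and 96.4 CPM, with the BPA library 4.02-fold lower (3.50 to 4.64) than control and the library given both 5.21-fold higher (4.53 to 6.01) than BPA. Rai1 overlaps the end of Srebf1 on the opposite strand. Insig2, the other INSIG gene, had the 4 libraries in the reverse order of Srebf1, 159.8, 334, 168 and 117 CPM, and its BPA library was 2.09-fold higher (1.99 to 2.20) than control. Scap, the escort, was at 163, 113, 114 and 97.5 CPM, and the control library stood above the 3 others. Among the 5, 1 was at least 2-fold lower with KRG (Insig1), 1 lower with BPA (Srebf1) and 1 higher with BPA (Insig2), and in none were both livers given KRG on the same side of both without it. For BPA against control in liver, 3.06% of all genes were at least 2-fold lower and 1.22% higher.

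The fatty acid arm had a median nearer 0 than the sterol arm for KRG against control in liver, but a similar one for both against BPA. Its median log2 ratio was -0.26 for KRG against control and -0.32 for both against BPA, with 12 of 13 and 10 of 13 members below 0. The sterol medians were -0.77 and -0.36. At least 2-fold lower in KRG against control were 2, Fads2 and Pnpla3, where 1.3% of all genes were. In both against BPA 1 was at least 2-fold lower (1.33% of all genes) and 1 higher (2.36%). Both livers given KRG were below both without for 6 of the 13, Fasn, Acss2, Scd1, Me1, Fads2 and Thrsp, an order that 10.6% of all genes showed. The 6 of 13 became 12 without the BPA library and 10 without the KRG library. The summed level was 6421, 6437, 5224 and 4558 CPM. No test of the difference between the arms was made.

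Acly, which makes cytosolic acetyl-CoA from citrate, was at 235, 207, 214 and 172 CPM, and Acss2, which makes it from acetate, at 88.5, 77.6, 68.3 and 54.3 CPM. In both the library given both agents was the lowest. Acaca, the acetyl-CoA carboxylase that starts fatty acid synthesis, was at 70.6, 59.1, 69.2 and 56.3 CPM, and Acacb, the carboxylase of the mitochondrial surface, at 80.4, 73.6, 75.5 and 44.9 CPM. For Acaca, Acacb, Acly and Elovl6 both livers given BPA were below both without, 4 of 13, an order that 18.0% of all genes showed. Fasn, the fatty acid synthase, was at 551, 652, 399 and 522 CPM, and its KRG library was 1.38-fold lower (1.34 to 1.43) than control. Me1, the malic enzyme that supplies NADPH, was at 171, 192, 154 and 109.7 CPM.

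Scd1, the stearoyl-CoA desaturase of liver, was at 1737, 1952, 1331 and 926 CPM, and the library given both was 2.11-fold lower (2.06 to 2.15) than BPA. Its neighbour Scd2, the form known from brain and other tissues, was at 8.31, 8.40, 9.39 and 12.8 CPM, the only member of either arm with both livers given KRG above both without. Elovl6, which lengthens palmitate (chr3:129532355-129638495, plus strand, mm10), was at 116, 85.6, 96.4 and 64.9 CPM. The desaturases of polyunsaturated fatty acids, Fads1 and Fads2, were at 427, 273, 306 and 338 CPM and 52.5, 31.8, 21.5 and 25.9 CPM, each highest in the control liver. Thrsp, a small protein that goes with lipogenesis, was at 2867, 2822, 2476 and 2219 CPM, with little difference between libraries. Pnpla3, a lipid droplet acylhydrolase, was at 17.3, 3.47, 3.91 and 13.9 CPM. It was 5.0-fold lower (3.63 to 7.01) with BPA and 4.44-fold lower (3.32 to 6.02) with KRG, yet near control with both. Srebf1, Srebf2 and Insig1 also had the control library and the one given both above those given BPA or KRG alone. Its mean lay below 10 CPM, and it was counted 265, 45, 57 and 172 times in the 4 libraries.

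**Figure D2:**
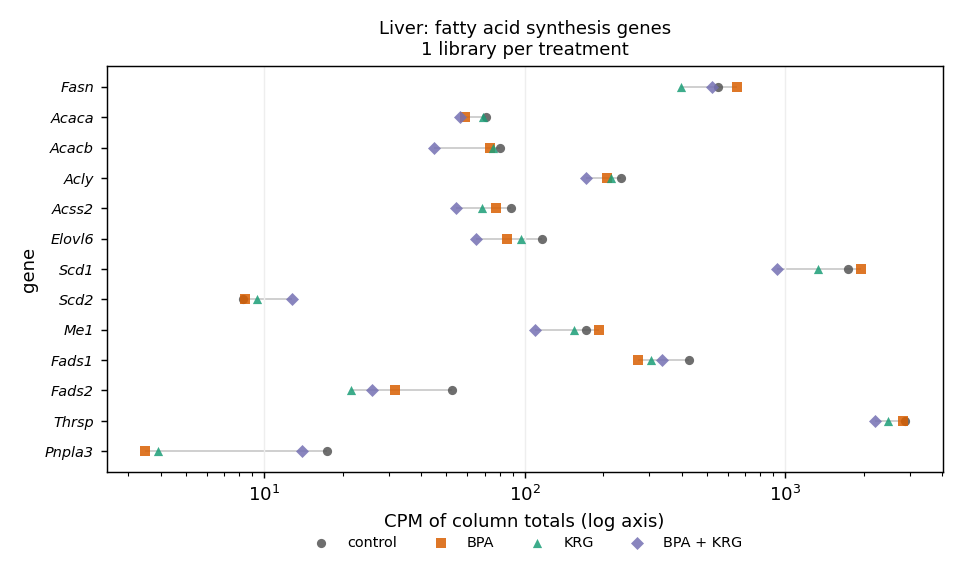
Levels of the 13 genes of the fatty acid arm in the 4 liver libraries, 1 point per library, on a log axis of CPM. For most genes the 4 points lie close together, and Pnpla3 shows control and BPA plus KRG near 17.3 and 13.9 CPM with BPA and KRG alone near 3.47 and 3.91 CPM.

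No group is replicated, but each tissue has 2 libraries with and 2 without each agent. An additive model over all 8 libraries (edgeR's quasi-likelihood test, 9941 genes, 2 residual degrees of freedom, Benjamini-Hochberg adjustment) takes any joint effect of BPA and KRG as error, and its p-values measure only the spread between these libraries. All 37 members passed its filter of a mean of 10 CPM in either tissue. For the KRG term in liver, 0 of 9941 genes were called (0.0% higher and 0.0% lower), and 3.17% had an unadjusted p under 0.05. Among the sterol members 11 of 19 had one. Msmo1 had the lowest, with a log2 change of -0.96 ± 0.18 (SE), a p of 0.00238 and an adjusted p of 0.755. Cyp51 followed at -1.15 ± 0.26 (adjusted p = 0.932). DESeq2 called both, with adjusted p of 0.0123 and 0.0490, among 8 genes higher and 29 lower. Of the regulators 0 of 5, and of the fatty acid arm 1 of 13, had an unadjusted p under 0.05. For the BPA term in liver 0 genes were called, 5.06% had an unadjusted p under 0.05 (2 of 19 sterol, 0 of 5 regulators, 1 of 13 fatty acid members), and DESeq2 called 15 higher and 22 lower, with no member among them.

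In uterus, most of the sterol genes stood higher in the libraries given BPA, from much lower levels than in liver. For BPA against control, 16 of the 19 had a ratio above 0, with a median log2 ratio of 0.70 against 0.03 over the 9198 genes that averaged 10 CPM or more in uterus. At least 2-fold higher were 3 (Idi1, Msmo1 and Hsd17b7), against 3.04% of all genes, and 0 were 2-fold lower (1.64%). Of these 3, 1, Msmo1, had a mean of at least 10 CPM. The second pair of uteri, both agents against KRG alone, shares no library with the first. There 12 of the 19 had a ratio above 0 and 7 below, with a median of 0.39 where all genes had 0.07. In that pair 2 were at least 2-fold higher (6.94% of all genes) and 0 lower (4.64%). Both uteri given BPA were above both without it for 12 of the 19, an order that 28.1% of all genes showed. Leaving out any 1 uterus left between 12 and 14.

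Msmo1 was at 27.9, 68.3, 32.5 and 73.5 CPM, and the BPA library was 2.45-fold higher (2.17 to 2.77) than control. The library given both was 2.26-fold higher (2.02 to 2.54) than the one given KRG, so the 2 uteri with BPA lay well above the 2 without. Sqle was at 17.6, 36.2, 15.6 and 39.6 CPM and Mvd at 30.9, 58.7, 40.1 and 69.8 CPM, and in both the 2 uteri with BPA lay above the 2 without. Fdps was at 13.6, 28.1, 18.6 and 33.9 CPM, Idi1 at 1.42, 4.81, 2.31 and 3.85 CPM and Hsd17b7 at 3.21, 9.18, 6.47 and 10.9 CPM, each lowest in the control uterus. Fdft1 was at 41.5, 62.0, 34.9 and 61.4 CPM, Mvk at 10.5, 19.3, 10.9 and 16.1 CPM and Lss at 5.60, 9.69, 6.16 and 8.38 CPM. In these 3 the libraries with and without BPA did not overlap, as also in Tm7sf2 at 1.34, 3.28, 1.77 and 2.23 CPM. Cyp51 was at 42.3, 70.2, 48.6 and 48.6 CPM and Stard4 at 9.56, 11.2, 7.85 and 11.8 CPM, both barely separated, and in Cyp51 the libraries given KRG and both were equal to 3 digits. The lowest of these levels rest on few counts, and Idi1 was counted 19, 66, 30 and 57 times in the 4 libraries.

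Other sterol members in uterus did not follow BPA. Hmgcs1 was at 151, 214, 246 and 220.0 CPM, lowest in the control uterus and highest with KRG. Nsdhl was at 10.1, 9.98, 15.2 and 12.0 CPM and Dhcr7 at 5.01, 4.59, 8.08 and 7.91 CPM, and these 3 had both uteri given KRG above both without, as 8.16% of all genes did. Pmvk was at 38.0, 43.2, 62.0 and 36.0 CPM, Ebp at 216, 235, 273 and 195 CPM and Acat2 at 104, 108, 124 and 108 CPM, each highest with KRG alone. Sc5d was the 1 member with both uteri given BPA below both without, at 25.4, 14.4, 19.9 and 17.2 CPM, as 17.7% of all genes were. For KRG against control, the sterol median was 0.25 where all genes had -0.12, with 0 members at least 2-fold higher (2.16% of all genes) and 0 lower (1.67%).

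Markers of other cell types moved with BPA in the same libraries. The 5 bladder lining markers all stood at least 2-fold higher in the BPA uterus than in control, with a median log2 ratio of 4.20, and Upk1a and Upk3a, the most abundant, were at 91.3, 1694, 43.3 and 3174 CPM and 67.8, 1279, 7.08 and 2688 CPM. The 5 epithelial markers were summed at 1888, 2852, 1280 and 3445 CPM, and 4 of them were higher in both uteri given BPA. The 5 hepatocyte markers were summed at 443, 37.7, 877 and 51.6 CPM, and all of them were lower in both uteri given BPA. The 6 skeletal muscle markers, all higher in both uteri given BPA, were summed at 87.7, 180.5, 77.6 and 1521 CPM. The 6 erythroid markers, all lower in both, were summed at 4996, 2263, 3739 and 814 CPM. The part of these cell types in the sterol values was not tested. The regulators Srebf1, at 21.9, 36.0, 19.9 and 50.6 CPM, and Srebf2, at 33.0, 39.9, 19.5 and 66.6 CPM, were likewise higher in both uteri given BPA, and so was Scap at 57.1, 84.1, 72.2 and 74.6 CPM. These are 3 of the 5 regulators, where 28.1% of all genes showed this order. Insig2 was lower in both, at 34.3, 25.9, 37.3 and 20.4 CPM, as 17.7% of all genes were. Insig1 stood apart, at 14.0, 11.7, 40.5 and 14.3 CPM, and its KRG library was 2.90-fold higher (2.45 to 3.44) than control.

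**Figure D3:**
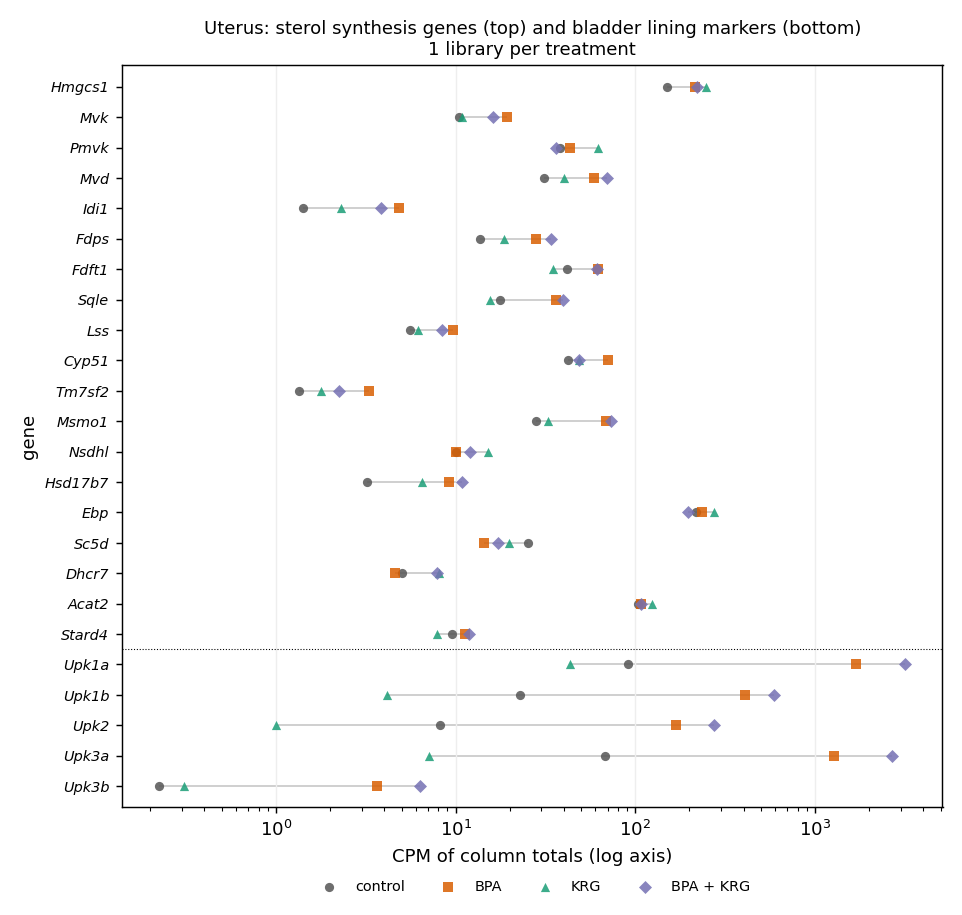
Levels of the 19 genes of the sterol arm (top) and the 5 bladder lining markers (bottom) in the 4 uterus libraries, 1 point per library, on a log axis of CPM. The libraries given BPA and both lie to the right of those without BPA for 12 of the 19 sterol genes, Msmo1, Sqle and Mvd among them.

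The fatty acid arm in uterus was set apart by the library given KRG alone. For KRG against control, 12 of the 13 members had a ratio above 0, with a median log2 ratio of 1.34, and 7 were at least 2-fold higher, where 2.16% of all genes were. The KRG library was the highest of the 4 uteri for 8 of the 13, and for 18.5% of all genes. In the second pair, both against BPA, 10 of 13 were above 0 with a median of 0.42, and 1 was at least 2-fold higher (Pnpla3), where 1.04% of all genes were. Both uteri given KRG were above both without for 5 of 13, Fasn, Acly, Me1, Thrsp and Pnpla3, against 8.16% of all genes. The 5 became 7 to 10 with 1 uterus left out. Between both and KRG, which share the KRG library with the first pair, 5 members were at least 2-fold lower (4.64% of all genes) and 2 higher (6.94%), with a median of -0.74.

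Pnpla3 was at 5.01, 29.5, 141 and 60.8 CPM, 28.2-fold higher (22.1 to 36.5) than control in the KRG library and 5.90-fold higher (4.54 to 7.75) than control in the BPA library. Fasn was at 442, 447, 1275 and 732 CPM, Thrsp at 473, 371, 1484 and 585 CPM and Scd1 at 986, 529, 2557 and 533 CPM. The KRG library alone was the high one in all 3, and for Scd1 both uteri given BPA were lowest, with the BPA library 1.86-fold lower (1.81 to 1.92) than control. Acss2 was at 6.80, 9.40, 28.6 and 7.84 CPM, Acaca at 56.9, 97.8, 146 and 87.2 CPM and Acacb at 20.5, 17.6, 33.3 and 15.5 CPM, again highest with KRG. Acly was at 86.9, 94.8, 132 and 127 CPM. Me1 was at 69.0, 199, 221 and 232 CPM, so that the control library was low and the 3 others alike. Scd2 was at 343, 293, 302 and 406 CPM, and its libraries with and without either agent overlapped. Acaca, Elovl6 and Pnpla3 share 22.5%, 11.7% and 22.7% of the stretches at their transcript ends with the gene models Gm5182, Gm11295 and Gm49513.

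Adipocyte RNA moved with the same library. Of the 8 adipocyte markers, 7 were at least 2-fold higher with KRG than in control, with a median log2 ratio of 1.81. Cfd and Adipoq, the most abundant, were at 2806, 2365, 3561 and 1475 CPM and 426, 298, 1459 and 412 CPM. The neutrophil markers were summed at 330.2, 201 and 202 CPM in the control, BPA and both libraries and at 1263 CPM with KRG. In liver the 8 adipocyte markers were summed at 25.2 to 34.1 CPM. Most of that sum was Plin4, at 20.7, 29.9, 29.3 and 28.9 CPM, while Adig and Lep were at 0 in all 4 livers. Markers of sebaceous or preputial gland, which also makes lipid, were summed at 3.29 to 6.39 CPM in uterus. The part of adipocyte RNA in the fatty acid values was not tested.

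Elovl6, Fads1 and Fads2 were higher in both uteri given BPA than in both without. Elovl6 was at 23.1, 51.1, 30.5 and 74.0 CPM, Fads1 at 39.8, 59.0, 41.8 and 64.5 CPM and Fads2 at 1.79, 4.52, 1.92 and 6.96 CPM. The library given both was highest, and the KRG library was also above control, in all 3 genes. They make 3 of 13, no more than the 28.1% of all genes with this order, and Acacb and Scd1 had the reverse order, as 17.7% of all genes did. For BPA against control the arm had a median of 0.42, with 3 members at least 2-fold higher (Elovl6, Me1 and Pnpla3), where 3.04% of all genes were, and 0 lower (1.64%).

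**Figure D4:**
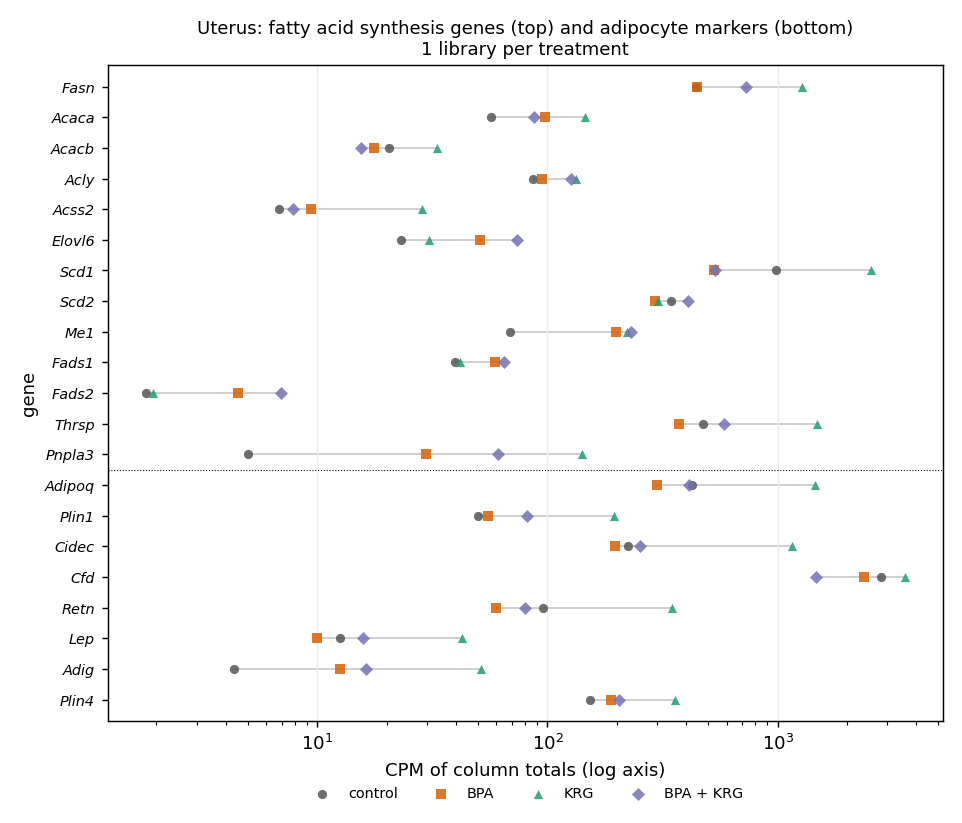
Levels of the 13 genes of the fatty acid arm (top) and the 8 adipocyte markers (bottom) in the 4 uterus libraries, 1 point per library, on a log axis of CPM. The library given KRG alone lies furthest to the right for 8 of the 13 genes, Pnpla3 at 141 CPM against 5.01 CPM in control, while Elovl6 and Fads2 are highest with BPA plus KRG.

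In the additive model, the BPA term in uterus called 1.35% of all genes higher and 2.77% lower. Msmo1 rose by a log2 change of 1.20 ± 0.19 (SE; edgeR adjusted p = 0.0288, in 2 of 2 pairs of libraries), and Elovl6 by 1.17 ± 0.18 (adjusted p = 0.0288, in 2 of 2 pairs). They were the only members called, 1 of 19 and 1 of 13, where 1.35% of all genes were called higher. Counts of 1 are too small to set against that share, and 0 of the 5 regulators were called. Neither call held in all settings. With the 4 uterus libraries alone, the adjusted p was 0.0660 for Msmo1 and 0.0700 for Elovl6. With 1 library left out it ran from 0.0496 to 0.158 for Msmo1 and from 0.0408 to 0.241 for Elovl6. In these fits, leaving out any 1 of the 4 uteri ended both calls, and Msmo1 stayed called in 1 of the 4 fits without a liver. At an unadjusted p under 0.05 stood 7 of the 19 sterol and 5 of the 13 fatty acid members, against 15.3% of all genes. The KRG term in uterus called 0 genes (5.39% at an unadjusted p under 0.05, with 4 of 19 sterol and 4 of 13 fatty acid members among them). Fasn had a log2 change of 1.21 ± 0.27 (adjusted p = 0.827) and Thrsp of 1.24 ± 0.33 (adjusted p = 0.832), and DESeq2 called both, with adjusted p of 0.0136 and 0.0254, among 45 genes higher and 4 lower. Without the BPA uterus or the one given both, the edgeR change was 1.65 for Fasn and 1.77 for Thrsp. Without the control or the KRG uterus it was 0.73 and 0.68.

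The terms were also compared between tissues in the same edgeR model. The BPA terms differed, liver minus uterus, for Elovl6 by -1.65 ± 0.26 (adjusted p = 0.0376), where 0.433% of all genes were called lower and 2.17% higher. Elovl6 fitted lower with BPA in liver and higher in uterus, and with any 1 library left out the adjusted p ran from 0.0878 to 0.162. It was the only member called. The KRG terms differed for 0 genes, with 5.13% of all genes, 10 of 19 sterol and 7 of 13 fatty acid members at an unadjusted p under 0.05. DESeq2 called 2 genes higher and 23 lower for that difference, with Fasn among them at -1.68 ± 0.44 (adjusted p = 0.0322).

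Across all treatments, cholesterol synthesis genes were far more abundant in liver than in uterus. With treatment as a term (edgeR's quasi-likelihood test, 3 residual degrees of freedom), all 19 sterol members were higher in liver, where 33.4% of all genes were called higher and 39.7% lower. The log2 differences ran from 1.64 ± 0.23 for Mvk to 5.15 ± 0.33 for Tm7sf2. Column totals in place of TMM scaling moved the whole split, to 1817 genes higher and 6299 lower in liver against 3325 and 3943, and left 18 of the 19 called higher. Among regulators, Insig1 was higher in liver by 3.67 ± 0.60, Insig2 by 3.47 ± 0.35, Scap by 1.58 ± 0.23 and Srebf1 by 1.60 ± 0.43, while Srebf2 had a difference of 0.10 ± 0.17 (adjusted p = 0.630) and was called lower in liver with column totals. In the fatty acid arm 8 were called higher in liver, from 1.49 ± 0.52 for Scd1 to 4.02 ± 0.51 for Fads2, and 1, Scd2, lower, by -4.29 ± 0.16 (adjusted p = 5.12e-05). The call of Scd1 was not stable, with an adjusted p from 0.00131 to 0.253 over the alternatives and a call in 5 of 13, and that of Srebf1 was kept in 8 of 13 (adjusted p up to 0.171). Scd2, the neighbour of Scd1 on mouse chromosome 19, was called lower in liver in 13 of 13, at 8.31 to 12.8 CPM in liver and 293 to 406 CPM in uterus. Fasn, Acaca, Me1 and Pnpla3 were not called. At an unadjusted p under 0.05 stood 75.2% of all genes and, of the members, all 19 sterol genes, 4 of 5 regulators and 9 of 13 fatty acid genes.

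**Figure D5:**
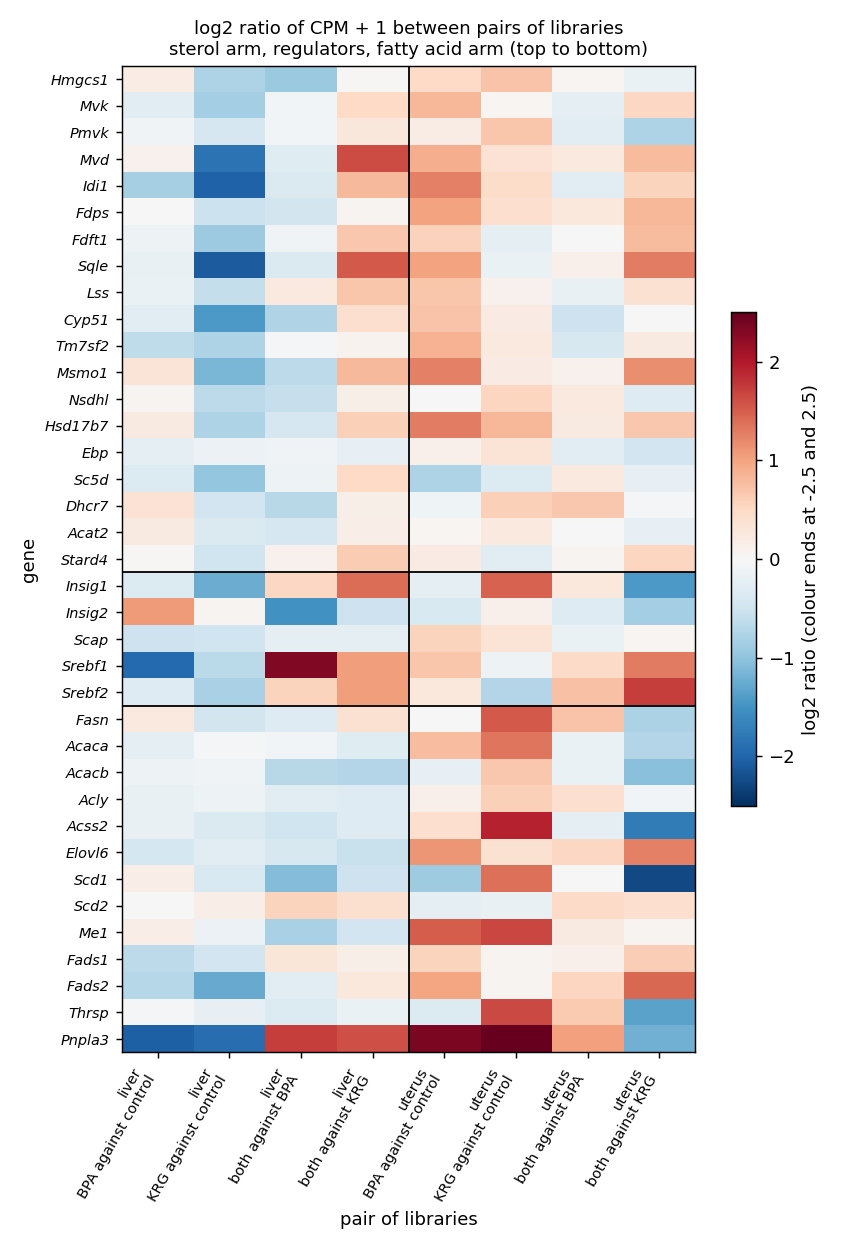
Log2 ratio of CPM + 1 for each of the 37 genes in 4 pairs of libraries per tissue, blue for lower and red for higher in the first library named, with colours ending at -2.5 and 2.5 (Pnpla3 in uterus exceeds the scale). The sterol arm, at the top, is blue throughout in KRG against control liver (19 of 19) and mostly red in BPA against control uterus (16 of 19), and the fatty acid arm, at the bottom, is mostly red in KRG against control uterus (12 of 13).

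Lists of neighbouring functions had median ratios nearer 0 than the sterol arm in the liver given KRG, with no test of the difference. Of all genes, 1.04% were at least 2-fold higher and 1.3% lower in this pair, so a count of 0 in lists this short says little. Of 13 genes of the side branches of sterol synthesis, 0 were at least 2-fold higher or lower (median log2 ratio -0.18), with Aacs, which makes acetoacetyl-CoA, 1.46-fold lower. Of 10 genes of SREBP processing and of its partner factors, 0 reached 2-fold (median -0.22), with Nfyb, a subunit of NF-Y, 1.42-fold lower. Of 10 genes of the liver X receptor, 0 reached 2-fold (median -0.05), with the cholesterol exporters Abca1 and Abcg5 1.40-fold and 1.23-fold lower. The 12 genes of glycolytic supply had a median of -0.17, with Pklr, the liver pyruvate kinase, 1.71-fold higher. Of 12 genes of triglyceride synthesis, 1 was at least 2-fold higher, Lpin1, a phosphatidate phosphatase, by 4.36-fold (median 0.00). Lpin2 was 1.26-fold higher.

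With BPA in uterus the same lists had medians from -0.09 to 0.24, where all genes had 0.03. The side branches had a median of 0.03, with Dhdds, of dolichol synthesis, 1.34-fold higher. The SREBP processing list had -0.09, with the NF-Y subunit Nfyc 1.67-fold lower and Pgrmc1 1.27-fold higher. The liver X receptor list had 0.24, with Abca1 1.89-fold and Mylip 1.66-fold higher. Triglyceride synthesis had 0.07, with Lpin3 2.09-fold and Agpat3 1.16-fold higher. Glycolytic supply had -0.04, with G6pdx, the entry to the pentose phosphate pathway, 1.60-fold higher.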

How the data were processed

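Each of the 8 libraries was made from 500 ng of total RNA with a QuantSeq 3′ kit, which reads near the polyadenylated end, per the labels' protocols. Per gene symbol, each deposited file gives unscaled counts of 1 library. Bowtie2, edgeR and the mm10 build are named, without versions or roles, per the submitters' processing notes. Which program counted the reads, whether it used strand and what it did with reads of several matches is not stated. Of the gene rows, 44 repeat a symbol and were kept apart.

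From the deposited counts, CPM of column totals, Rn45s included, was computed, then log2 ratios of CPM + 1 between pairs of libraries of a tissue (each agent against control, and the library given both against each agent). Medians and counts of an arm are over all its members, with a mean of at least 10 CPM as an alternative, while the background was limited to genes with that mean. This turns round the planned order of filter and no filter. Terms were tested with edgeR 4.0.16 in R 4.3.3 (TMM scaling, quasi-likelihood, Benjamini-Hochberg over all genes, called under 0.05). On simulated counts for 9941 genes at a dispersion of 0.02, the KRG term in liver recovered 100% of 200 genes changed by a log2 of 2, with 10 false calls. The common dispersion of the real libraries was 0.0482, above the simulated one, and no smaller change was simulated. The recovery therefore does not measure what the fit could find in these libraries. DESeq2 1.42.0 was an alternative. Promoters are from RefSeq on GRCm38.p6, and overlaps and shared transcript ends from GENCODE M21 on mm10.

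The members and the lists were chosen with earlier results of these data known. All members could be named. Of each related list the 2 genes with the largest ratio in KRG against control liver and in BPA against control uterus were named, apart from results not reported here, and of markers the 2 most abundant, with Plin4, Adig and Lep added for their levels in liver. Promoters printed by rule were those of Idi1, Insig1 and Pnpla3 (Sqle, also chosen, has no entry), and those of Hmgcs1, Msmo1 and Srebf2 were added after their matches were seen. Gpat3 and Gpat4 were matched by older symbols, and 1 list gene was not found.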

Additional observations from a re-analysis of the deposited data

Results flagged for a closer look

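The BPA term differed between liver and uterus for Elovl6, by -1.65 on the log2 scale (liver minus uterus, SE 0.26, edgeR adjusted p = 0.0376). Both livers given BPA stood below both without, and both uteri given BPA above both without. The adjusted p was 0.000559 with DESeq2 and ran from 0.0878 to 0.162 when 1 library was left out. The gene model Gm11295 shares 11.7% of the stretches at its transcript end. Bladder lining, epithelial and skeletal muscle markers stood higher, and erythroid and hepatocyte markers lower, in the same uteri. Markers moved in the livers too. Lower in both livers given BPA were 6 of 6 skeletal muscle, 3 of 5 stromal and 2 of 5 epithelial markers, with 0 of these higher. Of the 8 adipocyte markers 3 were lower and 1 higher. Of all genes 18.0% were lower and 18.5% higher in this way. Their part in the difference was not tested.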

How the results depend on the processing

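Each group holds 1 library, and leaving out a library leaves the others to stand for its group. Members with few counts, such as Idi1 in uterus, are also limited by depth. No paired analysis by replicate number was possible because each group holds 1 library. Liver and uterus were matched by treatment, and without that term 3473 genes were called higher and 4117 lower in liver. No median of the sterol or fatty acid arm was reversed by an alternative, and those of the regulators were not included. By the rule used, a median could reverse only where it lay further from 0 than the counting error of its members. A change of sign in a median nearer 0 was thus not counted as a reversal, and a count could move but not reverse. Of 970 alternative values of medians and counts, 48 moved past a set limit among the main results and 30 among the others. Fitted changes of single members were less stable. Of 259, over 37 members and 7 terms, 85 changed sign in some setting, 0 of them among the 35 called. In some setting 7 of the 35 lost their call. For liver against uterus these were 4 of 32 calls. Every call of a treatment term was lost in some setting, 2 of 2 for BPA in uterus and 1 of 1 for the BPA difference between tissues. TMM factors moved the median of all genes by -0.11 for both against BPA in liver and by 0.12 for KRG against control in uterus, and DESeq2 size factors by -0.12 and 0.11. The sterol median for both against BPA in liver was then -0.47 with TMM and -0.48 with DESeq2 size factors, and the fatty acid median for BPA against control in uterus was 0.27 over members with a mean of at least 10 CPM. With DESeq2, the BPA term in uterus called 247 genes higher and 421 lower of 9941. Among them were 2 sterol and 2 fatty acid members higher and 1 fatty acid member lower. For KRG in liver, 2 sterol members were called lower (29 of 9170 genes). For KRG in uterus, 2 fatty acid members were called higher (45 of 2617), and 1 lower for its difference between tissues (23 of 3966). For BPA in uterus, column totals called 129 of 9941 genes higher, 2 sterol members among them. With no filter 224 of 19220 were called higher, 2 fatty acid members among them. With the 4 uterus libraries alone 122 of 9198 were called higher, with 0 members of either arm. Column totals called 1 regulator lower in liver than in uterus, as 6299 of 9941 genes were. Without 1 library, the members called higher for BPA in uterus ran from 0 to 2 in the sterol arm and from 0 to 2 in the fatty acid arm, and those lower in the fatty acid arm from 0 to 2. For the BPA difference between tissues, 0 fatty acid members and from 0 to 1 regulators were called lower, and for liver against uterus 1 to 2 fatty acid members. The fatty acid members whose libraries with and without an agent did not overlap ran from 4 to 9 for lower with BPA in liver, from 6 to 12 for lower with KRG in liver and from 7 to 10 for higher with KRG in uterus. These counts were added after the data were seen. The cause of these changes was not tested, apart from the fewer libraries, which make an order easier to reach. At 1.5-fold in place of 2-fold, 13 sterol members were lower with KRG in liver and 10 higher with BPA in uterus. The share of all genes at 1.5-fold was not computed, so these counts cannot be set against a background.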
